A study of Mus musculus with 2 samples.

Results

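The cells described here are those of mouse small intestinal organoids that carried a low but raised amount of 4 enterocyte messenger RNAs. Enterocytes are the absorptive cells of the gut lining. Apoa1 and Apoa4 encode apolipoproteins of the lipid particles they export, Fabp1 a protein that binds fatty acids in the cytoplasm, and S100g a calcium-binding protein. A cell was a member if the sum of these 4 genes was at least 6 and under 20 UMIs per 10000 of its UMIs (CP10K) and if Chgb, a granule protein of hormone-secreting cells, was under 5 CP10K. A UMI is a molecular tag that marks 1 captured RNA molecule. The matrix held 21806 barcodes. A filter that asked for 500 genes, 10000 UMIs and no more than 20% of UMIs from mitochondrial genes kept 3353 of them, and 319 of the kept cells were members. Because measured levels of 5 genes chose the cells, the levels of Apoa1, Apoa4, Fabp1, S100g and Chgb below are a description of the choice.

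The study compared a control group with melatonin-treated organoids, which are small epithelial structures grown outside the animal, and took cells of 3 organoid lines, pooled within each group, on culture day 3 for 1 droplet library a group. The labels give no strain, age or dose. The 2 samples hold the same matrix, in which barcodes end in the suffix 1 (set 1) or 2 (set 2), and no label ties a suffix to a treatment. No comparison of melatonin with control was therefore made, the difference between the sets has no known direction, and, with 1 matrix and no replicates, no test was run. Intervals given below are 95% intervals of the counting error alone.

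In the small intestine, stem cells marked by Lgr5 divide at the base of the crypts, and their daughters divide several more times as transit-amplifying cells while they move up. Cells that take the absorptive path switch on genes of lipid handling, nutrient transport and the brush border, the carpet of microvilli that faces the gut lumen, and leave the cell cycle on the way to the villus. Fabp1 and S100g are used as markers of this path.

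Set 1 held 183 members among 1809 kept cells (10.1%, exact Clopper-Pearson interval 8.76 to 11.6%), and set 2 held 136 among 1544 (8.81%, 7.44 to 10.3%). The shares were 8.13% and 4.47% with S100g left out of the sum and 4.92% and 3.76% with the lower limit at 9 CP10K. They are compared with 1200 and 921 cells under 6 CP10K (lower cells) and with 165 and 232 cells at 20 CP10K or more (higher cells), all with Chgb under 5 CP10K. A further 261 and 255 cells had more Chgb (Chgb-high cells). The median member had 34304 UMIs in set 1 and 33920.5 in set 2, and 5128 and 5069.5 detected genes. Lower cells had medians of 36525 and 33557 UMIs and higher cells of 33568 and 34747, so depth was alike in these groups, while Chgb-high cells were shallower, at 15156 and 16428. The median mitochondrial share was 9.20% and 9.51% in members, 9.08% and 8.84% in lower cells, and 11.7% and 12.6% in higher cells. Between the sets, 29 barcode sequences were shared, and none of the members carried one of them. Scrublet, a doublet caller, marked 6 of 1809 and 6 of 1544 kept cells, a share of 0.332% and 0.389%. This is too few to take its calls as a check for doublets, and no cell was removed as one. Among the top 5% of its scores were 12 of 183 members (6.56%) and 9 of 136 (6.62%), against 4.83% and 4.99% of the lower cells.

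The members form a range of a continuous measure, not a group set apart by a gap. The 4-gene sum had a median of 8.96 CP10K in members of set 1 (lowest 6.01, highest 19.9) and of 8.25 in set 2 (6.02 to 19.0), which corresponds to a median of 31 and 32 UMIs of these genes per cell. Lower cells had medians of 2.01 and 1.79 CP10K and higher cells of 112 and 217. Near the lower limit, 72 and 73 cells lay at 5 to under 6 CP10K and 37 and 36 at 6 to under 7. Near the upper limit, 7 and 3 cells lay at 18 to under 20 CP10K and 6 and 6 at 20 to under 22. The absorptive genes outside the rule, described further on, summed to 2615 CPM in the cells just below the lower limit and 2447 CPM in those just above it in set 1, and to 2184 and 2275 CPM in set 2. At the upper limit they summed to 3796 CPM inside and 3400 CPM outside in set 1 and to 3253 and 3307 CPM in set 2, so in set 1 the sum was lower on the upper side of each limit.

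**Figure D1:**
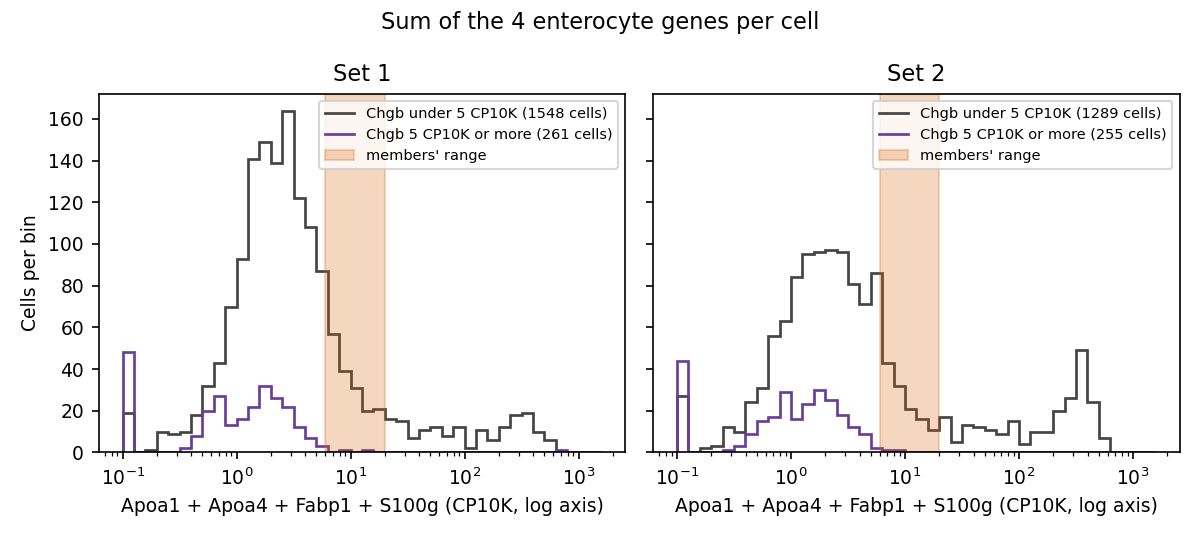
Number of kept cells (vertical axis) by the sum of Apoa1, Apoa4, Fabp1 and S100g in CP10K (horizontal axis, log scale, bins of equal log width, cells below 0.1 placed in the first bin), for cells with Chgb under 5 CP10K (grey) and with more (violet), in set 1 (left) and set 2 (right). The shaded range of the members lies on the right flank of the main peak, and few Chgb-high cells reach it.

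How firmly the range is held by counting was read by splitting the UMIs of every cell at random into 2 equal parts. Of the cells chosen on one part, 69.6% in set 1 and 64.1% in set 2 were again in the range on the other, 26.3% and 34.0% fell below it, and 4.12% and 1.96% lay above it. Of the cells that were lower on one part, 5.46% and 6.29% were in the range on the other. Exchange by counting noise was therefore mainly with the lower cells.

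Fabp1 carried most of the sum that defines the members. It was the most abundant of the 4 genes in 161 of 183 members of set 1 and in 74 of 136 of set 2, whereas S100g led in 12 and 57. Pooled over members, Fabp1 stood at 761 and 496 CPM in sets 1 and 2 (exact Poisson intervals 740 to 783 and 476 to 516; 100 CPM equal 1 CP10K), and S100g at 124 and 362 CPM (115 to 133 and 345 to 379). Apoa4 stood at 108 and 80.2 CPM, and Apoa1 at 13.1 and 23.6 CPM. All 4 genes were detected together in only 40 and 39 members, and a UMI of Apoa1 was found in 27.9% and 38.2% of them. S100g made up 12.3% of the 4-gene UMIs in members of set 1 and 37.7% in set 2. The same tilt between the sets was present in lower cells (21.3% and 46.1%) and, less steeply, in higher cells (11.2% and 18.9%).

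The 250 bases before the RefSeq start of the 2 genes that carry most of this sum are printed with 4 short motifs of intestinal and nuclear receptor factors in capitals. The motif of HNF4 was CAAAGTNCA, that of CDX factors was TTTATNG, that of GATA factors was AGATAA, and the core hexamer of nuclear receptors was AGGTCA. Each was searched on both strands, so that a match on the other strand stands in capitals as its reverse complement, and positions give the leftmost base of a match, counted back from -1, the base before the start. The sequences are from RefSeq on the build GRCm38.p6, and the build behind the deposited counts is not given in the sources used here. Of 32851 mouse promoters of this length, 1.19% hold the HNF4 letters, 9.81% the CDX letters, 9.99% the GATA letters and 14.0% the hexamer.
Fabp1, chr6:71199629-71199878, plus strand: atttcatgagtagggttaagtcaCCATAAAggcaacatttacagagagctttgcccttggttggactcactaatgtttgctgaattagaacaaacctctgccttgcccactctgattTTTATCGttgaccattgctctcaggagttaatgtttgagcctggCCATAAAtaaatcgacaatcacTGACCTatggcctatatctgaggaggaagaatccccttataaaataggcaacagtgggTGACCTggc
S100g, chrX:162964600-162964849, minus strand: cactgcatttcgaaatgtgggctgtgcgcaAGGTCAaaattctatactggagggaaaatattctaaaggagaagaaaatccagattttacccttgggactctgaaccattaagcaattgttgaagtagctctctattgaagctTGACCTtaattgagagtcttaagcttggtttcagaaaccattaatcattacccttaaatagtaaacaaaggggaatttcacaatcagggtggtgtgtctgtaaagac
The Fabp1 window holds the CDX letters 3 times (first base at -227, -133 and -89) and the hexamer 2 times (-67 and -9). The S100g window holds the hexamer 2 times (-220 and -107). A match is a run of letters and was not measured as a binding site here.

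RNA that floats free in the droplets can give UMIs of a gene in cells that do not express it. The Chgb-high cells, hormone-secreting by their leading genes, are set beside the members here, but absorptive transcripts were found in them too, whose source was not tested, so they give no clean background. Of these, 4 of 261 in set 1 (1.53%, 0.419 to 3.88%) and 2 of 255 in set 2 (0.784%, 0.0951 to 2.80%) reached 6 CP10K of the 4 genes, against 348 of 1548 (22.5%) and 368 of 1289 (28.5%) of the other cells. Their median 4-gene sum was 1.25 and 1.15 CP10K and that of the lower cells 2.01 and 1.79. Members stand above both by the rule, so the distance says nothing about free RNA, whose part was not tested. The pooled Fabp1 level of the Chgb-high cells was 617 CPM in set 1, where 89.0% of its UMIs came from 3 cells, and 60.8 CPM in set 2. After each cell was thinned to 10000 UMIs, a depth that every kept cell reaches, at least 1 Fabp1 UMI was expected in 96.6% and 83.8% of members, 59.6% and 46.8% of lower cells and 49.0% and 44.5% of Chgb-high cells (without thinning 99.5% and 98.5%, 88.2% and 78.6%, and 64.4% and 62.0%). The members' share is fixed by the choice of cells. The intervals of lower and Chgb-high cells overlapped in set 2 (43.5 to 50.1% and 38.3 to 50.9%) but not in set 1 (56.8 to 62.4% and 42.7 to 55.2%). Apoa1 had thinned shares of 10.9% and 16.3% in members (6.80 to 16.4% and 10.5 to 23.6%), 7.77% and 9.98% in lower cells and 22.2% and 21.3% in Chgb-high cells (17.3 to 27.8% and 16.4 to 26.8%).

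Absorptive genes that the rule did not use were a little higher in members than in lower cells and far below higher cells. The list held 53 genes of lipid handling, the brush border, nutrient transport, mineral absorption and retinoid handling, and its summed level was 2179, 2882 and 13460 CPM in lower cells, members and higher cells of set 1 and 1799, 2467 and 16178 CPM in set 2. The median log2 ratio of members over lower cells was 0.26 in set 1 (0.0020 to 0.56, the medians of the genes' lower and upper bounds) and 0.35 in set 2 (0.02 to 0.75), over 51 genes with at least 10 UMIs, and the gene's own interval lay above 0 for 26 and 28 of them and below 0 for 3 and 0. Over all 13030 genes with at least 10 UMIs outside the rule, it lay above 0 for 7.59% and 7.34% and below 0 for 8.78% and 6.99%, and over the 2268 of them at 50 CPM or more, whose intervals are narrower, above 0 for 19.6% and 15.5% and below 0 for 18.6% and 17.8%. Against higher cells the absorptive median was -1.94 (-2.28 to -1.68) and -2.15 (-2.61 to -1.89), and -0.89 and -1.22 with at most 10% mitochondrial UMIs. For counts of genes, a gene was called where it reached 10 CPM in 1 of the groups and differed at least 1.5-fold in the same direction in each set. Called lower than in higher cells were 43 of 46 absorptive genes that could be assessed, where 12.1% of all 7232 genes were. Among genes that reached 10 CPM in the members of each set, 32 of 35 were, where 8.6% of all 6678 such genes were. The 3 others were Plin2 (a lipid droplet coat protein), Ezr and Vdr. Called higher than in lower cells were 5 of 35, where 0.516% of all 6974 genes were, and none was called lower (0.201% of all genes). Not all of the 5 reached 10 CPM in lower cells (Slc6a19 was at 7.48 and 3.77 CPM), and such genes were assessed through the members. Over all assessed genes the median log2 ratio was 0.08 and 0.13 against higher cells and -0.02 in each set against lower cells.

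Rbp2, Adh1, Apoc3 and Slc6a19 were among the 5 genes. Rbp2, which binds retinol inside enterocytes, was at 107, 236 and 2763 CPM in lower cells, members and higher cells of set 1 and at 56.4, 146 and 3378 CPM in set 2. Adh1, an alcohol dehydrogenase that also oxidises retinol, was at 48.3, 125 and 373 CPM in set 1 and at 10.7, 47.8 and 298 CPM in set 2. In both genes the members stood apart from either neighbour beyond counting error in each set. Apoc3, an apolipoprotein, was at 28.2 CPM in lower cells and 56.1 CPM in members of set 1 and at 12.2 and 29.9 CPM in set 2. Slc6a19, the main transporter of neutral amino acids in the brush border, was at 7.48 and 18.4 CPM in lower cells and members of set 1 and at 3.77 and 11.8 CPM in set 2.

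Several of these genes were also found in Chgb-high cells. Adh1 was at 216 and 145 CPM there, above the members, and Rbp2 at 204 and 96.0 CPM, below them. Summed over all 53 absorptive genes, the per-cell median was 33.3 and 28.7 CP10K in Chgb-high cells against 27.8 and 22.5 CP10K in members, with Sis, Cdhr5 and Dpp4 among the genes that were higher in Chgb-high cells. A raised absorptive sum alone therefore does not set the members apart from hormone-secreting cells, and Chgb-high cells give no background level for these genes. Lower cells, which share the members' depth, are the nearer comparison: thinned shares of cells with an Adh1 UMI were 54.8% and 28.1% in members (47.3 to 62.2% and 20.7 to 36.4%) and 31.6% and 9.0% in lower cells (77.0% and 51.5%, and 58.6% and 22.3%, without thinning).

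**Figure D2:**
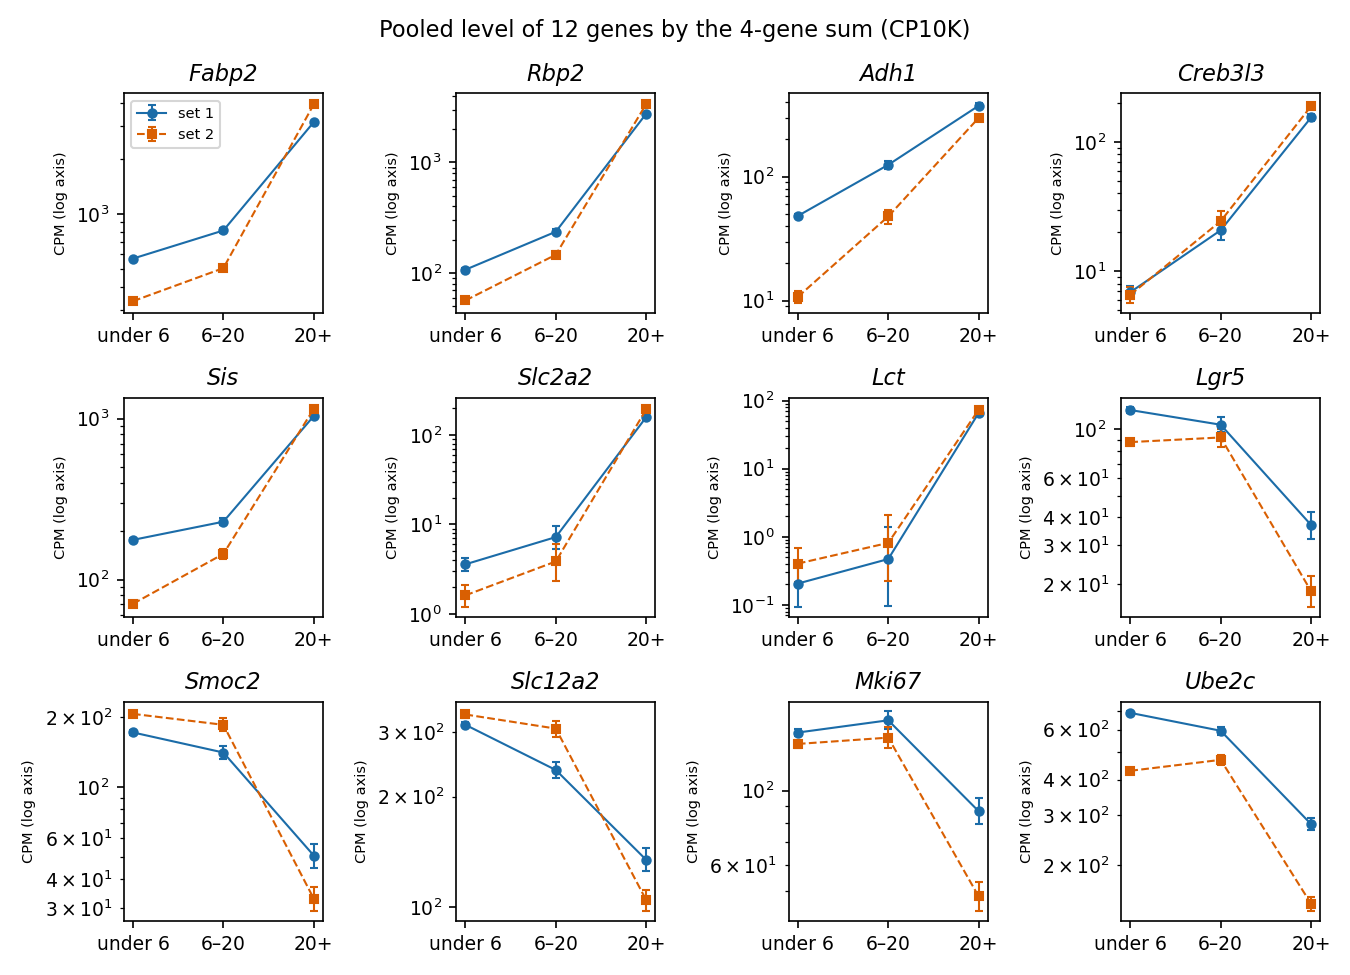
Pooled level in CPM (log axis) of 12 genes in lower cells (under 6 CP10K), members (6 to 20) and higher cells (20 and above), with set 1 as circles and set 2 as squares. Bars are exact 95% Poisson intervals. Fabp2, Rbp2, Adh1, Creb3l3 and Sis step up from lower cells to members in each set, whereas Lgr5, Smoc2, Slc12a2, Mki67 and Ube2c have their large drop beyond the members.

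Among the lipid genes, Fabp2, a fatty acid-binding protein like Fabp1, was at 570, 811 and 3159 CPM in lower cells, members and higher cells of set 1 and at 334, 506 and 3949 CPM in set 2. Its median per cell was 5.29, 7.64 and 20.7 CP10K in set 1, and members ranged from 0.629 to 25.3 CP10K, so single cells of neighbouring groups overlapped widely. Mttp, which loads lipid onto apolipoprotein B, was at 83.9 and 114 CPM in lower cells and members of set 1 and at 70.5 and 106 CPM in set 2. Of the 14 lipid genes, 10 in each set had an interval of the ratio to lower cells above 0 (7.59% and 7.34% of all genes) and none had one below it. Dgat1 and Mogat2, enzymes of triglyceride synthesis, had log2 ratios of 0.25 and 0.58 over lower cells in set 1 and of 0.20 and 0.44 in set 2. Dgat2, another such enzyme, was at -0.02 (-0.30 to 0.26) in set 1 and 0.33 (0.04 to 0.64) in set 2.

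Brush border genes split into those that were already present in lower cells and those that were at low levels in both lower cells and members. Sis, the sucrase-isomaltase that digests sugars at the cell surface, was at 176, 229 and 1039 CPM in set 1 and at 70.6, 144 and 1152 CPM in set 2. Vil1 and Ezr, which bundle and anchor the actin of microvilli, differed little between lower cells and members, with log2 ratios of 0.12 and -0.15 in set 1 and 0.10 and 0.01 in set 2. Lct, the lactase, had 0.472 and 0.814 CPM in members and 65.9 and 73.4 CPM in higher cells. Alpi, the intestinal alkaline phosphatase, had 4.56 and 5.09 CPM in members against 105 and 109 CPM, and Mep1b, a meprin subunit, 1.10 and 2.04 against 44.2 and 65.8 CPM. Alpi was nevertheless above lower cells (2.04 and 1.68 CPM), with log2 ratios of 0.87 (0.51 to 1.78) and 1.18 (0.85 to 2.31). For Lct and Mep1b the interval of the ratio to lower cells held 0 in each set. Of the 16 genes of this list, 15 were called lower than in higher cells, where 12.1% of all genes were, and 9 of the 10 that reached 10 CPM in members were (8.6% of all such genes).

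Sugar transporters showed the same division. Slc5a1, the sodium-glucose cotransporter, was at 63.2 and 75.8 CPM in lower cells and members of set 1 and at 50.1 and 70.0 CPM in set 2. Slc2a2 (GLUT2) had 7.23 and 3.87 CPM in members against 158 and 193 CPM in higher cells, and Slc2a5, the fructose transporter, 4.87 and 1.22 CPM against 155 and 148. Over lower cells, Slc2a2 had log2 ratios of 0.84 (0.50 to 1.49) and 0.89 (0.42 to 2.04), and Slc2a5 of 0.58 (0.12 to 1.31) and -0.45 (-2.23 to 0.47). Of the mineral genes, Atp2b1, a calcium pump, was at 92.2 and 111 CPM in members and Vdr, the vitamin D receptor, at 88.2 and 70.2 CPM. Trpv6 (a calcium channel) and Cyp24a1 (a vitamin D hydroxylase) had no UMI in members or in higher cells. Slc11a2, the iron importer, was at 14.0 and 16.5 CPM in members against 262 and 178 CPM in higher cells.

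The place of each gene on the line from lower to higher cells was not the same. It was computed on CPM as the share of the difference between lower cells (0%) and higher cells (100%) that members had covered, for genes at least 2-fold higher in higher cells at 10 CPM or more, with intervals from the members' counts. The median was 4.33% over 42 absorptive genes in set 1 (from -6.19% for Slc7a7 to 30.8% for Plin2) and 4.95% over 44 in set 2 (from -5.17% for Dpp4 to 19.7% for Slc27a4), and the interval lay above 0 for 27 and 28 of them and below 0 for none. Over all 685 and 795 genes that met the same conditions outside the rule, the median was 8.54% and 7.13%, and the interval lay above 0 for 49.3% and 41.6% and below 0 for 0.73% and 1.01%. With at most 10% mitochondrial UMIs the median was 10.3% and 11.5%. Adh1 stood at 23.5% (20.9 to 26.3%) in set 1 and 12.9% (10.8 to 15.2%) in set 2, Rdh7, a retinol dehydrogenase, at 24.9% and 12.8%, and Slc6a19 at 22% and 11.4%. Slc27a4, a fatty acid transporter, stood at 19.96% (5.93 to 36.9%) and 19.7% (1.61 to 41.5%). Fabp2 stood at 9.31% and 4.75%, Rbp2 at 4.86% and 2.71%, and Apoc3 at 3.77% and 2.74%. Nearer to lower cells were Slc2a2 at 2.36% and 1.18%, and Lct at 0.405% (-0.165 to 1.79%) and 0.561% (-0.251 to 2.30%). The intervals of Adh1, Fabp2, Rbp2 and Lct, which cover the members' counts only, do not overlap in either set. What part free RNA had in these places was not tested. The rule's own genes lay at 4.70% and 2.83% for Fabp1 and 3.79% and 6.31% for S100g.

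**Figure D3:**
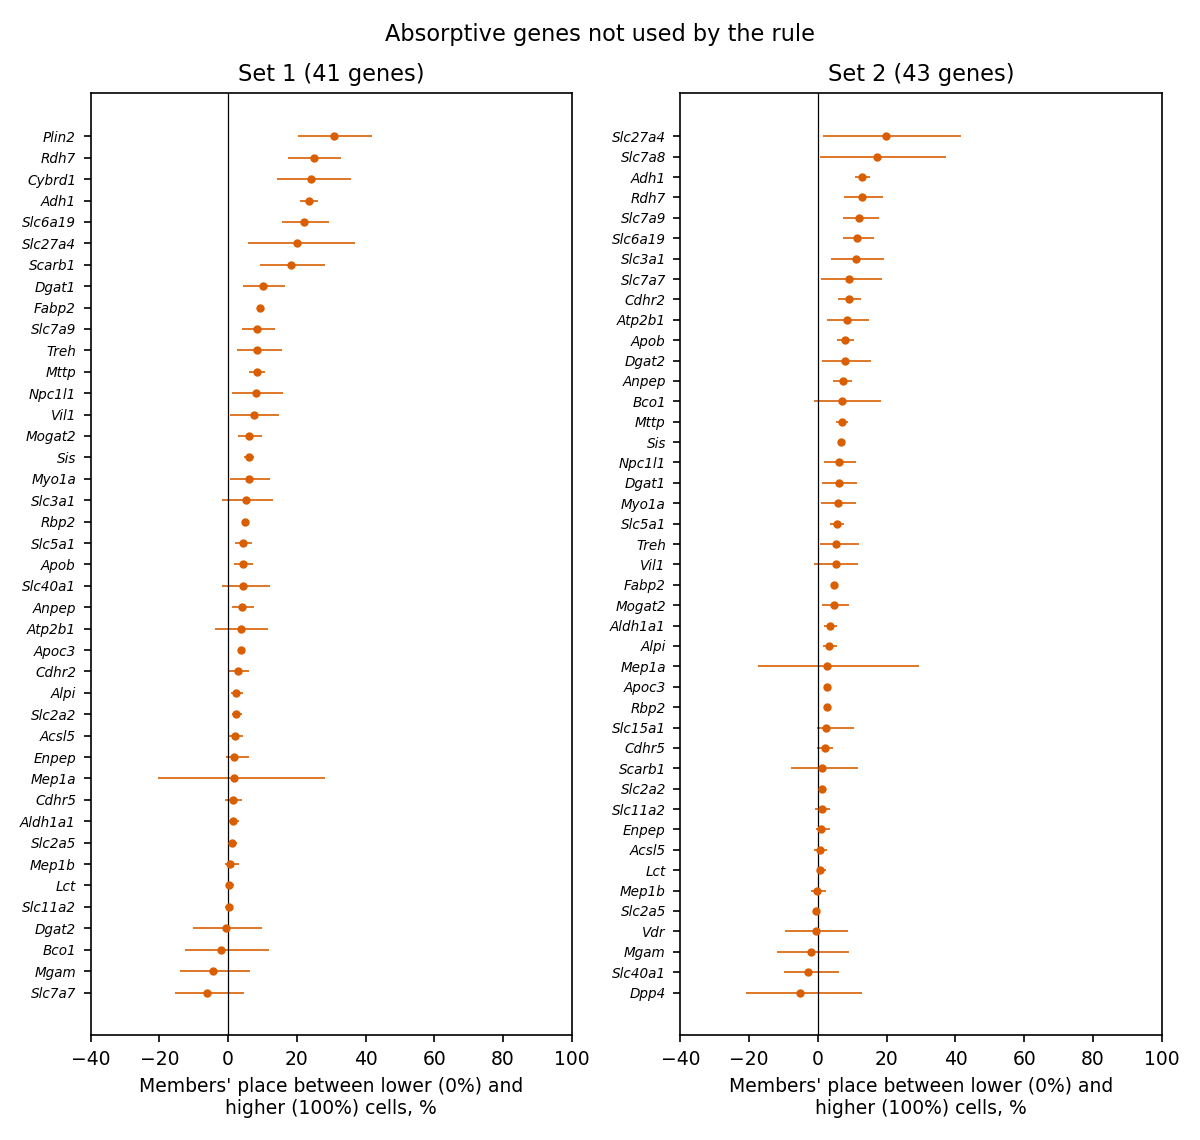
Members' place (horizontal axis, percent) between lower cells (0%) and higher cells (100%) for absorptive genes outside the rule in set 1 (left) and set 2 (right), with 1 gene not shown. Points are pooled values and bars the intervals from the members' counts. Most genes lie under 10%, while Adh1, Rdh7, Slc6a19 and Slc27a4 lie above 10% in each set. With at most 10% mitochondrial UMIs the median is 10.3% and 11.5% (not plotted).

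Among well-expressed genes few differed much from lower cells. At 50 CPM or more and at least 2-fold in each set, 3 of 2268 genes were higher in members (0.132%) and 6 were lower (0.265%). Cyp2b10, a cytochrome P450 that is a classic target of the receptor CAR, was at 27.2, 99.7 and 1099 CPM in lower cells, members and higher cells of set 1 and at 15.8, 84.7 and 1655 CPM in set 2, with log2 ratios to lower cells of 1.84 (1.73 to 2.02) and 2.35 (2.23 to 2.61). Cyp2c29, a P450 that oxidises drugs and fatty acids, was at 27.6, 81.8 and 1531 CPM and at 17.0, 119 and 2674 CPM. In set 2, 38.4% of its UMIs in members came from 3 cells. Rbp2 was the third gene, with log2 ratios of 1.13 and 1.36. Creb3l3, Reg1, Adh1 and Slc6a19, each under 50 CPM in at least 1 set, had larger ratios than Rbp2 in each set. Cyp2b10 was low in most single members, with a median of 0.551 CP10K in set 1 and 0.215 in set 2 and a highest cell of 6.63 and 6.90.

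At the lower mark of 1.5-fold and 10 CPM, 36 of 6974 genes were higher in members than in lower cells and 14 were lower. Of the 36, 34 were higher still in higher cells in each set, and the exceptions were Cfhr2 and Anxa3. P450 genes made up 7 of the 36, out of 17 assessed genes whose symbol starts with Cyp, and none of those was called lower. A pair of glutathione transferases were among the 36, Gsta1 and Gstm3, of 11 assessed. Gsta1 was at 532, 1055 and 4463 CPM in set 1 and at 1275, 2120 and 6209 CPM in set 2. Gm3776, whose sequence is close to that of Gsta1, could share reads with it, so both are uncertain, as are the P450 genes of the Cyp2b, Cyp2c and Cyp3a families, which have near-identical copies. Reg1, a secreted lectin of lower villus enterocytes, was at 20.7, 57.2 and 425 CPM in set 1 and at 1.65, 10.4 and 46.8 CPM in set 2. Klf2, Maff and Selenop were also among the 36, and each was higher in Chgb-high cells than in members.

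The windows before the start of the 3 genes at 2-fold are shown, since outside the rule these alone were at least 2-fold higher than in lower cells in each set at 50 CPM or more in each. All 3 symbols were found in the RefSeq table, with 1 start each.
Rbp2, chr9:98490287-98490536, plus strand: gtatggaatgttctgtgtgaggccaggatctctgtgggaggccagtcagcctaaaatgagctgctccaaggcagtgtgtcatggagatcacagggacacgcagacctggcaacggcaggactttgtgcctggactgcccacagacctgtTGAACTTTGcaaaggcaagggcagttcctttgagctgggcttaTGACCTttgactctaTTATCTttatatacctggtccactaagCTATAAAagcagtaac
Cyp2b10, chr7:25897408-25897657, plus strand: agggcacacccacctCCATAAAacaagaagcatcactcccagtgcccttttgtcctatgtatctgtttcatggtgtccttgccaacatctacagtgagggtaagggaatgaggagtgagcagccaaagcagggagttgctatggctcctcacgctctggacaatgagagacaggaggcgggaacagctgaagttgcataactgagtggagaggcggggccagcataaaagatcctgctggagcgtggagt
Cyp2c29, chr19:39286835-39287084, plus strand: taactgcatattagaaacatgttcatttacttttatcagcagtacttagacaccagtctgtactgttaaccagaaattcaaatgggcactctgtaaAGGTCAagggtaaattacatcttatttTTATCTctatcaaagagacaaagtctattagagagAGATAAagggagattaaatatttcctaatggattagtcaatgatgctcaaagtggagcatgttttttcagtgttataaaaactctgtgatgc
The Rbp2 window holds the HNF4 letters at -101, the hexamer at -58, the GATA letters at -43 and the CDX letters at -16, and the HNF4 letters are in none of the other windows printed here. Cyp2b10 holds the CDX letters at -235 and none of the other motifs. Cyp2c29 holds the hexamer at -154 and the GATA letters at -127 and -92.

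Transcription factors of the absorptive path had a median log2 ratio to lower cells of 0.12 in set 1 and 0.13 in set 2, with intervals above 0 for 4 and 6 of 14 (7.59% and 7.34% of all genes) and below 0 for none. Against higher cells the median was -0.38 and -0.63, with intervals below 0 for 6 and 9 of 14 (18.2% and 18.7% of all genes) and above 0 for 2 and 2 (22% and 29.1%). Hnf4a was at 82.5, 81.0 and 90.6 CPM in lower cells, members and higher cells of set 1 and at 86.5, 82.6 and 97.2 CPM in set 2. Cdx2, which sets intestinal identity, was at 90.7, 91.1 and 84.9 CPM and at 69.5, 75.1 and 70.8 CPM, and Gata4 at 42.3 and 38.1 CPM in members. Hes1, a Notch target that favours the absorptive over the secretory path, was at 341, 370 and 276 CPM and at 374, 407 and 316 CPM. Creb3l3, a membrane-bound factor that drives lipid genes such as Apoa4, was the 1 of 10 assessed factors called higher than in lower cells (0.516% of all genes). Since Creb3l3 was under 10 CPM in lower cells, it was assessed through the members. It was at 6.89, 20.8 and 155 CPM in set 1 and at 6.57, 24.4 and 189 CPM in set 2, and its place was 9.39% and 9.78%. Its thinned share of cells was 17.6% and 19.8% in members, 5.92% and 5.83% in lower cells and 10.1% and 7.98% in Chgb-high cells (without thinning 40.4% and 44.9%, 17.4% and 16.4%, and 15.3% and 14.1%). Called lower than in higher cells were 5 of 13 factors (12.1% of all genes), namely Creb3l3, Hnf4g, Maf, Nr1h4 and Nr1i3, the last being the receptor CAR, at 13.4 and 10.6 CPM in members and 47.9 and 55.0 CPM in higher cells. Among factors that reached 10 CPM in the members of each set, 3 of 10 were (8.6% of all such genes). Maf and Nr1h4 did not reach it, at 6.60 CPM in members of set 1 and 9.56 CPM in members of set 2.

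Crypt stem genes stood a little below the level of lower cells in each set. Genes of G2 and mitosis did so in set 1 and stood near that level in set 2. Lgr5, the receptor that marks crypt stem cells, was at 122, 105 and 36.9 CPM in lower cells, members and higher cells of set 1 and at 87.6, 92.0 and 18.5 CPM in set 2. Smoc2 was at 172, 141 and 50.6 CPM and at 207, 186 and 33.0 CPM. Slc12a2, an ion transporter of crypt cells, was at 313, 236 and 135 CPM and at 334, 306 and 105 CPM. Of the crypt stem list of 16 genes, 9 of 11 assessed were called higher than in higher cells, where 11.9% of all genes were. None of 11 was called apart from lower cells, near the share over all genes of 0.516% higher and 0.201% lower. The median log2 ratio to lower cells was -0.27 in set 1 (-0.45 to -0.11) and -0.18 in set 2 (-0.41 to 0.0026), with 9 and 7 of 14 genes below 0 beyond counting error (8.78% and 6.99% of all genes) and none above. Olfm4, another stem cell marker, was below 10 CPM in set 2 and so could not be called. It was detected in 12 of 183 and 1 of 136 members, and in 278 of 1200 and 37 of 921 lower cells.

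Axin2, a target of Wnt signalling, was at 45.8 and 30.5 CPM in lower cells and members of set 1 and at 34.1 and 19.9 CPM in set 2. Ascl2, a stem cell transcription factor, was at 8.95 and 4.56 CPM and at 6.6 and 4.68 CPM, below the 10 CPM needed for a call. Sox9, a crypt transcription factor, was at 77.8 and 72.4 CPM in members and at 74.6 and 81.8 CPM in lower cells.

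Genes of G2 and mitosis were 18 of 18 called higher than in higher cells (11.9% of all genes). Against lower cells 0 of 18 were called, which is near the share over all genes (0.516% higher and 0.201% lower). Mki67, a protein of dividing cells, was at 149, 163 and 86.8 CPM in set 1 and at 138, 144 and 48.2 CPM in set 2. Ube2c, which targets cyclins for destruction at anaphase, was at 687, 594 and 279 CPM and at 430, 469 and 146 CPM. The median log2 ratio of the list to lower cells was -0.21 in set 1 (-0.34 to -0.09), where 11 of 18 genes lay below 0 beyond counting error and 2 above (8.78% and 7.59% of all genes, and 18.6% and 19.6% of those at 50 CPM or more), and -0.03 in set 2 (-0.17 to 0.15). Thinned to 10000 UMIs, 80.6% and 63.3% of members would have 10 or more UMIs of this list (74.1 to 86.0% and 54.6 to 71.4%), against 87.2% and 63.2% of lower cells, 33.4% and 16.9% of higher cells and 1.60% and 3.88% of Chgb-high cells. Without thinning the members' shares were 88.5% and 77.2%. S phase genes, which copy DNA or supply its building blocks, were 9 of 17 called higher than in higher cells, where 11.9% of all genes were. Their summed level was 737, 869 and 577 CPM in set 1 and 968, 900 and 388 CPM in set 2, so the order of members and lower cells differed between the sets.

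**Figure D4:**
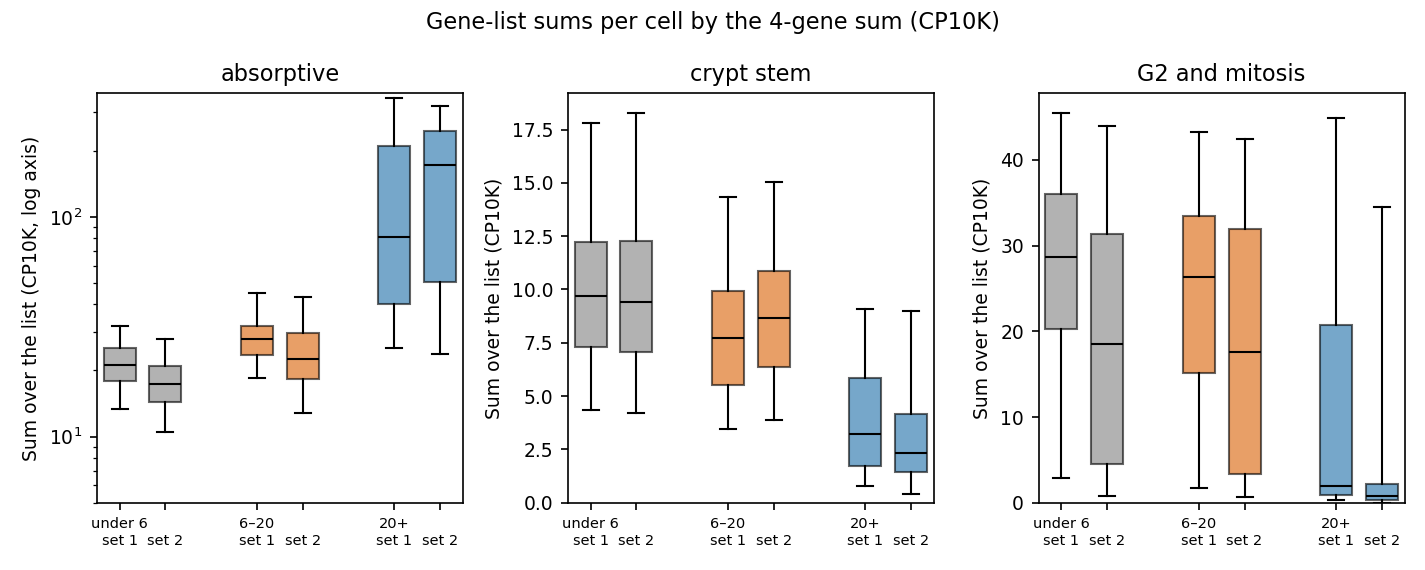
Sum of the absorptive list (left, log axis), the crypt stem list (middle) and the G2 and mitosis list (right) per cell in CP10K, for lower cells (grey), members (orange) and higher cells (blue) of each set. Boxes span the quartiles with the median, and whiskers the central 90% of cells. The boxes of members and lower cells overlap in all 3 panels, and the median of the G2 and mitosis list is 26.4 and 17.6 CP10K in members against 1.98 and 0.805 in higher cells.

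The label that these are early absorptive cells was set against these values. The absorptive genes outside the rule were raised over lower cells by a small amount (median log2 ratios of 0.26 and 0.35). Crypt stem genes were lower by a small amount (-0.27 and -0.18). Olfm4 was scarcer in set 1, while its intervals overlapped in set 2. Genes of G2 and mitosis were a little lower in set 1 (-0.21) and near the level of lower cells in set 2 (-0.03). Genes of the lower villus, a list of 7, had a median log2 ratio of 0.20 and 0.47 to lower cells, with intervals above 0 for 4 in each set (7.59% and 7.34% of all genes), and of -0.86 and -1.32 to higher cells. Of 4 that could be assessed against lower cells, Reg1 was called higher (0.516% of all genes), and in set 2 it reached 10 CPM in members but not in lower cells. The 6 upper villus genes had a median log2 ratio to higher cells of -1.02 in set 1 and -0.29 in set 2. Called lower than in higher cells were 3 of 3 assessed (12.1% of all genes), namely Krt20, Ada and Klf4. Krt20 and Ada were under 10 CPM in members and so were assessed through the higher cells. Krt20, a keratin of mature cells, was at 2.52 and 3.26 CPM in members against 63.0 and 101 CPM in higher cells. Klf4 was at 56.9 and 59.2 CPM against 99.6 and 110 CPM. Egfr, a growth factor receptor too low for a call, was at 4.87 CPM in members and 5.68 CPM in higher cells of set 1 and at 8.34 and 3.5 CPM in set 2. The cells are therefore named by the rule and not as a type.

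Against higher cells, 34 of 2510 genes at 50 CPM or more were at least 2-fold higher in members in each set (1.35%) and 189 were lower (7.53%). The count of higher genes was 6 with the upper limit at 15 CP10K, 15 with a pseudocount of 10 CPM and 53 with cells chosen and read on separate UMIs. With at most 10% mitochondrial UMIs the counts were 1 higher and 36 lower, and Dmbt1 was at a log2 ratio of -0.028 in set 2. The 12 with the highest ratios were Ly6e, Lgr5, Smoc2, Kif23, Nap1l1, Knstrn, Lmnb1, Bex3, Dmbt1, Plk1, Cenpa and Lyar, of which Kif23, Knstrn, Plk1 and Cenpa act in mitosis. Ly6e, a surface protein, was at 72.2 CPM in members and 22.2 CPM in higher cells of set 1 and at 95.9 and 22 CPM in set 2. Plk1, a mitotic kinase, was at 61.2 and 27.0 CPM and at 52.7 and 15.3 CPM. The 12 with the lowest ratios were 2010106E10Rik, G6pc, Clec2h, Guca2b, Lct, Cyp3a11, Leap2, Npl, Slc2a5, Dpep1, Gm5485 and Slc2a2. G6pc, which releases glucose from its phosphate, had 0.472 and 0.407 CPM in members, from 3 and 2 UMIs, against 87.4 and 78.5 CPM. Guca2b, which encodes the peptide uroguanylin, had 12.7 and 10.2 CPM against 564 and 596 CPM, with log2 ratios of -5.36 and -5.74. Leap2, a liver and gut peptide that blocks the ghrelin receptor, had 15.9 and 12.2 CPM against 555 and 684 CPM, and Cyp3a11, a drug-metabolising P450, 33.2 and 28.1 against 1312 and 1776 CPM.

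Along the 4-gene sum the members continued the gradient on both sides. In the steps of 6 to 8, 8 to 12 and 12 to 20 CP10K, with 75, 61 and 47 members in set 1 and 58, 48 and 30 in set 2, the absorptive list stood at 2566, 2946 and 3286 CPM in set 1 and at 2365, 2438 and 2724 CPM in set 2. The step below, 4 to 6 CP10K, had 2524 and 2102 CPM, and the step above, 20 to 50, had 4026 and 4029 CPM. Rbp2 stood at 170, 238 and 336 CPM over the 3 steps of set 1 and at 116, 127 and 242 CPM in set 2. The crypt stem list stood at 873, 776 and 717 CPM and at 885, 878 and 837 CPM, and reached 261 and 190 CPM only in cells at 100 CP10K or more. The G2 and mitosis list was at 2543, 2339 and 2693 CPM over the steps in set 1 and at 2390, 2009 and 1828 CPM in set 2. It was still at 1848 and 1732 CPM in cells at 50 to 100 CP10K, and at 518 and 229 CPM in cells at 100 or more. The fall of the division genes among higher cells thus lay mostly above 100 CP10K, far from the members' upper limit.

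**Figure D5:**
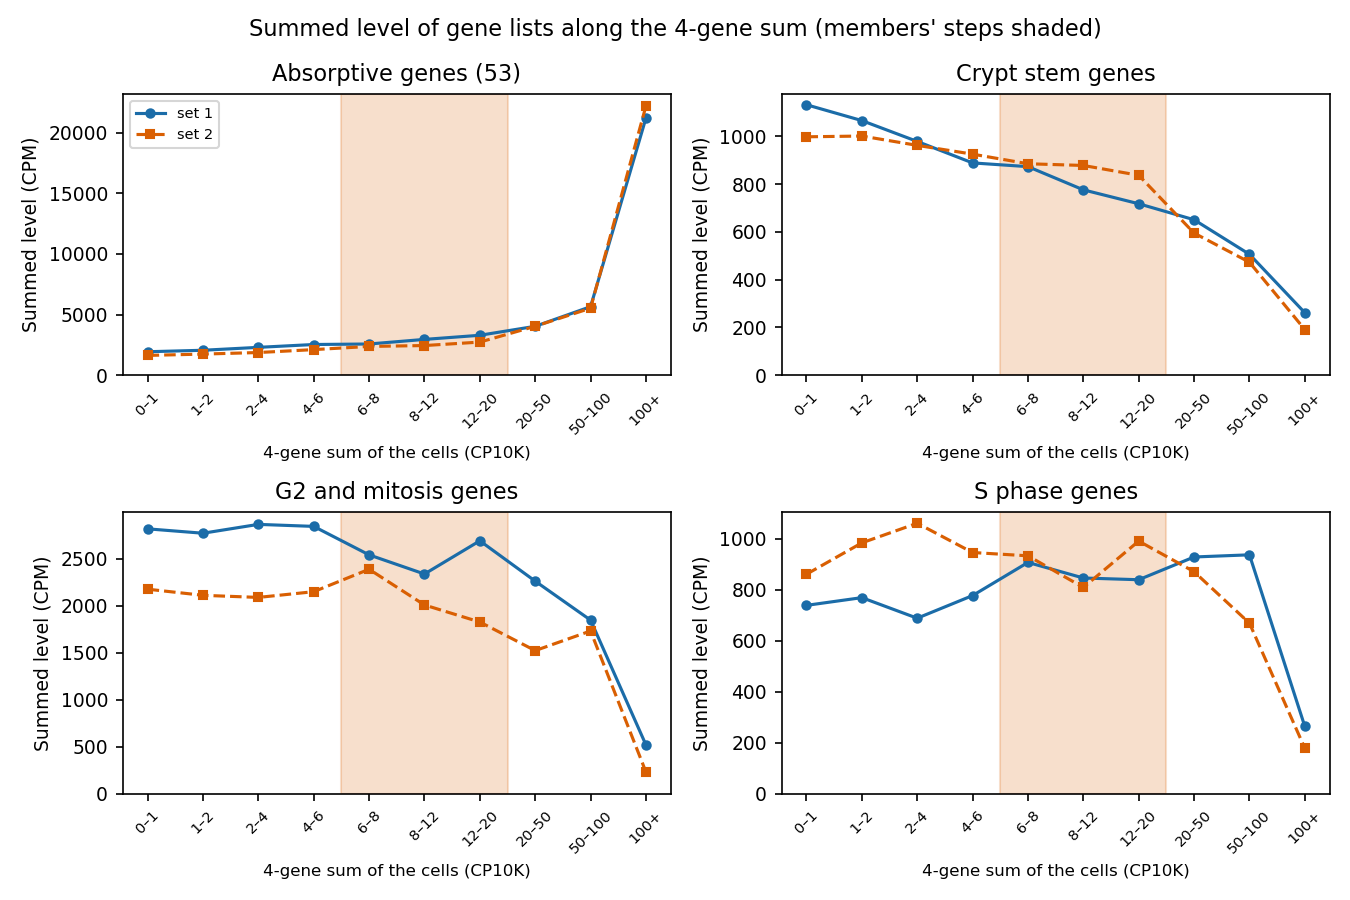
Summed level in CPM (vertical axes from 0) of the absorptive, crypt stem, G2 and mitosis, and S phase lists in 10 steps of the 4-gene sum in CP10K (horizontal axes), with set 1 as circles and set 2 as squares and the members' 3 steps shaded. The absorptive list is low through the shaded steps and reaches 21231 and 22223 CPM at 100 CP10K or more, where the G2 and mitosis list is at 518 and 229 CPM.

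The members also varied with the gene that led their sum. In set 2 the 57 members led by S100g had 2264 CPM of absorptive genes and the 74 led by Fabp1 had 2536 CPM, with median 4-gene sums of 7.87 and 9.55 CP10K. Fabp2 was at 415 CPM (388 to 444) in the former and 587 CPM (558 to 616) in the latter, Rbp2 at 105 (91.3 to 120) and 180 CPM (164 to 197), and Adh1 at 33.9 (26.5 to 42.9) and 60.1 CPM (51.1 to 70.2). In set 1, 12 members led by S100g had 624 CPM of Fabp2 and 81.7 CPM of Rbp2, against 841 and 254 CPM in 161 led by Fabp1. Anpep, a brush border aminopeptidase, went the other way, at 70.4 CPM (47.8 to 99.9) in members led by S100g and 38.1 CPM (33.2 to 43.5) in those led by Fabp1 in set 1 and at 145 (129 to 162) and 82.8 CPM (72.2 to 94.5) in set 2. Gsta1 did so in set 1, at 3152 against 905 CPM, but not in set 2, at 1992 against 2220 CPM. Creb3l3 was at 20.4 CPM in each kind of member in set 1 and at 17.5 CPM led by S100g and 25.3 CPM led by Fabp1 in set 2, with overlapping intervals. The G2 and mitosis list was at 2551 CPM in members led by Fabp1 and 2019 CPM in those led by S100g in set 1 and at 2233 and 2072 CPM in set 2.

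Some markers of secretory cells were lower in members than in lower cells. Called lower at 1.5-fold were 4 of 4 goblet, 2 of 4 Paneth and 1 of 5 hormone genes, where 0.201% of all genes were, and the median log2 ratio of the hormone list was -0.89 in set 1 and 0.05 in set 2. The Paneth and hormone genes called were Lyz1, Defa24 and Ghrl. Each was under 10 CPM in members of at least 1 set and so was assessed through the lower cells. The 4 goblet genes reached 10 CPM in members of each set. The 6 genes at 2-fold were Ghrl, Defa24, Tff3, Spink4, Fcgbp and Agr2, which mark hormone-secreting, Paneth and goblet cells. Each of the 6 was under 50 CPM in members of at least 1 set, so each was assessed through the lower cells. Ghrl was at 5.82 CPM in members and 187 CPM in lower cells of set 1 and at 11.8 and 188 CPM in set 2, and 87.3% and 95.4% of the UMIs of lower cells came from 3 cells. Tff3 was at 21.2 and 230 CPM and at 71.0 and 724 CPM, with 24.6% and 50.2% from 3 cells. Once cells with 20 CP10K or more of another type's markers were left out of all groups, none of the 6 was past 2-fold in each set. All 6 are themselves among the markers by which those cells were left out, so that choice largely sets their loss. The log2 ratios of members over lower cells were then 0.23 and 0.041 for Tff3, 0.62 and 0.74 for Fcgbp, and -0.60 and -1.17 for Agr2. As medians over cells, members had 0.902 and 0.569 CP10K of the 9 goblet genes, 0.826 and 1.02 CP10K of the 17 hormone genes and 3.01 and 5.42 CP10K of the 6 Paneth genes. The lower cells had 1.01 and 0.774, 0.766 and 1.06, and 4.21 and 5.70 CP10K of these lists.

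Most Paneth-list UMIs of members came from Itln1, an intelectin, at 431 and 948 CPM, against 700 and 1019 CPM in lower cells and 203 and 199 CPM in higher cells. In set 1, 9 of 183 members had 20 CP10K or more of Itln1, and in set 2, 25 of 136. The defining Paneth genes Lyz1 and Defa24 were at 12.9 and 4.09 CPM in members of set 1 and at 6.92 and 6.11 CPM in set 2. The goblet list reached 20 CP10K in 0 and 2 members and the hormone list in 0 and 2, and the 0 of 183 cells allow a share of up to 1.64%, taking 3 cells as the limit of a count of 0. Immune genes summed to 1.73 and 1.22 CPM and tuft genes to 3.77 and 3.05 CPM in members, with 6 and 5 of 8 tuft genes at 0 and Ptprc, the common leukocyte gene, at 0 in each set. Mesenchymal genes had 2 UMIs in members of set 1 and 0 in set 2. The revival list, genes of the regenerating epithelium such as Clu and Ly6a, had a median of 0.663 and 1.34 CP10K in members against 0.363 and 1.09 in lower cells, and 63.9% of its UMIs in members of set 1 came from 3 cells. Pooled, its summed level was 339 CPM in members and 149 CPM in lower cells of set 1 but 378 and 495 CPM in set 2. The median log2 ratio of its genes to lower cells was 0.24 (-0.56 to 0.70) and -0.74 (-1.40 to -0.31), so the order differed between the sets. Clu was at 0.315 and 4.27 CPM in members and Ly6a at 1.26 and 0.814 CPM.

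Immediate early genes such as Fos and Jun, which respond to stimuli quickly and to tissue dissociation, differed between the groups as well. The median of the list per cell was 15.8, 20.4 and 32.8 CP10K in lower cells, members and higher cells of set 1 and 21.5, 25.6 and 39.9 CP10K in set 2, and it was 50.7 and 52.6 CP10K in Chgb-high cells. Against lower cells the interval of the ratio lay above 0 for 8 and 7 of 8 genes (7.59% and 7.34% of all genes, and 19.6% and 15.5% of those at 50 CPM or more), with medians of 0.47 and 0.22, in set 1 larger than the 0.26 of the absorptive list, and 0 of 8 were called at 1.5-fold (0.516% of all genes). Against higher cells 4 of 8 were called lower (12.1% of all genes). The part of this list and of the mitochondrial share in the differences between the groups was not tested. With cells above 10% mitochondrial UMIs left out, 114 and 84 members and 51 and 62 higher cells were left, and the median 4-gene sum of those higher cells was 46.5 and 51.1 CP10K.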

How the data were processed

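Droplet-based RNA sequencing was done on organoid cells of 1 control and 1 melatonin library. The authors deposited whole-number counts of UMIs per gene and barcode, unnormalized; per the submitters' processing notes, bcl2fastq 2.20.0, Cell Ranger 3.1.0 and STAR 2.7.3a were used, and the genome build is not given in the sources used here. The files of both samples were identical (3 of 3) and handled as 1 matrix, with no treatment comparison. Members, gene lists and comparisons were chosen with earlier results of these data known.

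UMIs were summed over the cells of a group and set and scaled to CPM (Python 3.11.15, scipy 1.17.1), with exact Poisson intervals for levels, exact conditional binomial bounds for ratios and Clopper-Pearson intervals for shares. Log2 ratios used CPM plus 1, which understates those of low genes, and list medians used genes with at least 10 UMIs. The calculation was tested on simulated data. Scrublet was run in scanpy 1.11.5. PCR copies are collapsed by UMIs, but intervals still cover counting error only. The text names the 12 genes with the highest and the 12 with the lowest ratio in each comparison, at 50 CPM or more and 2-fold in each set, without the rule's genes and mitochondrial genes, ranked by the smaller of the sets' ratios; genes of the fixed lists may be named beside these. Genes named from the 36 at 1.5-fold (Cfhr2, Anxa3, Gsta1, Gstm3, Gm3776, Klf2, Maff and Selenop) were chosen after their values were seen. Alternatives covered the filters, the limits of the range, the pseudocount, weighting by cell, doublet scores and shared barcodes; a limit on Chgb of 1 CP10K, and a count that also asks for intervals without 0, were added after seeing the data. A gene of the absorptive list enters the counts and medians but is not reported here.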

Additional observations from a re-analysis of the deposited data

Results flagged for a closer look

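Barcodes with over 20% mitochondrial UMIs were left out of every comparison, and a signal in the members' range was present among them. Of those with at least 10000 UMIs, 78 of 662 in set 1 (11.8%) and 59 of 560 in set 2 (10.5%) had 6 to under 20 CP10K of the 4 genes. Their share is near that of the members among kept cells (10.1% and 8.81%), but no limit on Chgb was set for these barcodes. Their median mitochondrial share was 39.7% and 33.9%, against 9.20% and 9.51% in members, so CP10K of all UMIs is not a like measure in both. The median sum of these mitochondria-rich barcodes was 2.91 and 3.08 CP10K of all UMIs and 5.51 and 5.48 CP10K of non-mitochondrial UMIs (2.24 and 1.98 in lower cells, 9.73 and 9.21 in members), from a median of 4 UMIs of the 4 genes per barcode.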

How the results depend on the processing

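Of 244 values of the main comparisons computed under 16 other settings, 223 stayed within their counting interval or within 1.5 times their count, 21 moved and none was marked as a change of sign. A change of sign was marked only where the counting interval of the main value left out 0, and counts and shares cannot have one. Of 924 values of single genes, 671 stayed, 246 moved and 7 changed sign, and under the limit of 10% mitochondrial UMIs 55 of 66 moved. With at least 20000 UMIs per cell, 4.17% of Chgb-high cells in set 1 reached 6 CP10K. With at most 10% mitochondrial UMIs, the absorptive list was at -0.89 and -1.22 against higher cells, its place at 10.3% and 11.5%, and the genes at 2-fold against higher cells were 1 up and 36 down, with Dmbt1 at -0.028 in set 2. With the lower limit at 9 CP10K, members were 4.92% and 3.76% of kept cells, and the G2 and mitosis list was at -0.39 against lower cells in set 2. With the upper limit at 15 CP10K, members were 8.68% of kept cells in set 1 and 6 genes were up against higher cells. With S100g left out of the sum, members were 8.13% and 4.47%. With no limit on Chgb, 26 genes were lower than in lower cells, and with Chgb under 1 CP10K, 3 were. With a pseudocount of 10 CPM, the absorptive list was at -1.40 and -1.74 and 15 genes were up against higher cells. With cells carrying other types' markers left out, 0 genes were lower than in lower cells, and Ghrl, Defa24 and Tff3 were at 0.28, 0.022 and 0.23 in set 1, Tff3 at 0.041 in set 2, and Fcgbp at 0.62 and 0.74. With cells chosen on one part of the UMIs and read on the other, 53 genes were up against higher cells. The cause of the other shifts was not tested. No paired analysis was possible because both samples hold 1 matrix and no test was run. Depth limits rare genes most: Lct in members rests on 3 and 4 UMIs.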
